A study of Mus musculus with 18 samples.

Results

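The genes described here are those of the proteins of the cytosolic ribosome. Members were taken by name: every non-control probe of the array whose gene name began with Rpl or Rps and a digit, or was Rplp0, Rplp1, Rplp2 or Rpsa, with the Rps6k kinase genes left out. The rule gave 82 members among the 25204 genes measured, read by 137 probes, and the brightest probe stood for each gene. By name, 76 of the 82 are canonical components, 45 of the large subunit and 31 of the small subunit, and 5 are paralogues (Rpl3l, Rpl7l1, Rpl22l1, Rpl36al and Rps27l). The remaining name, Rps19bp1, encodes a protein that binds a ribosomal protein and is not one itself.

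The ribosome joins a small subunit, which decodes the messenger RNA, to a large subunit, which forms the peptide bond. Most canonical ribosomal proteins are needed in equal copies, and their genes are among the most strongly transcribed of growing cells. In vertebrates these RNAs typically start with a tract of pyrimidines, through which growth signals control their translation, so that RNA level and protein output can part. Several of the genes, among them Rplp0, Rpl13a and Rps18, are in common use as reference genes for expression measurements.

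RNA was measured on 18 Agilent arrays with Cy5 and Cy3 channels (36 channels) in mouse induced pluripotent stem cells (iPSC), cells returned to a pluripotent state from somatic cells. The deficient iPSC lack the DNA methyltransferases Dnmt3a and Dnmt3b, which the labels call Dnmt3ab deficient, and came as 3 clones, 8, A6 and B2. Each clone shared an array with mouse embryonic fibroblasts (MEF), the clone being in Cy5, and another with embryonic stem cells (ESC) of the line V6.5, the clone being in Cy3. The other 12 arrays paired the same 3 clones, now described as showing some signs of differentiation, with 4 control iPSC lines numbered 3 to 6. The labels do not say how Dnmt3a and Dnmt3b were removed, nor the genotype of the control lines, MEF or ESC. All iPSC were grown on irradiated MEF feeders and passaged once or more on gelatin without new feeders. The labels state that only the undifferentiated deficient and the control channels entered the study's own statistics.

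The arrays were scanned on 2 days, 6 arrays with the deficient iPSC, ESC and MEF on the first and 12 with differentiating clones and control lines on the second. The share of probes well above background was 69.7% to 78.9% per channel on the first day and 75.6% to 92.6% on the second, and no spot was saturated. Pou5f1, which encodes the pluripotency factor Oct4, was between 14.46 and 15.21 (log2 signal) in every pluripotent RNA and at 10.76 in MEF, and the fibroblast collagen Col1a1 was at 18.38 in MEF. Of 11 pluripotency markers, 7 were higher and 0 lower by limma in deficient against control iPSC (15.2% and 31% of all genes), with a median of 0.52. In the differentiating against the undifferentiated clones 0 were higher and 8 lower (33.1% and 19.2% of all genes), with a median of -0.71. The part of these differences in the results below was not tested. Dnmt3a was between 8.98 and 9.85 in the deficient iPSC and between 10.53 and 11.35 in the control lines, while Dnmt3b was between 12.33 and 13.50 and between 12.41 and 13.99, so that the groups overlapped. The sources do not say whether either probe lies in a deleted part. Medians of 16 fibroblast and feeder markers were between 11.69 and 11.90 in the deficient iPSC, 12.13 and 12.44 in the differentiating clones and 12.73 and 13.17 in the control lines, and in deficient against control iPSC 13 of the 16 were lower and 1 higher by limma. The part of feeder RNA in the results below was not tested.

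Promoter windows of members named below show motifs that only a part of the members hold, and were picked for holding them. RefSeq promoters (build GRCm38.p6, 250 bases before to 50 after an annotated start) were found for 62 of the 82 members. The motif CCGGAAG, a binding motif of ETS transcription factors, was present on either strand in a promoter of 38.7% of these 62 members and of 9.86% of other genes. It lies at -214 bases from the annotated start in Rps26 and at -73 in Rps25. In the 5 windows that follow, printed 5′ to 3′ on the gene's strand, capitals mark that motif: Rps25 at chr9:44407630-44407659 (plus strand), Rps26 at chr10:128626702-128626731 (minus), Rps27l at chr9:66946084-66946113 (plus), Rps10 at chr17:27635255-27635284 (minus) and Rpl11 at chr4:136053369-136053398 (minus).
Rps25: cacccattgccCCGGAAGtactctctcgag
Rps26: ttaatcttccgCCGGAAGgttaaatagttc
Rps27l: ccgcctctatcCCGGAAGttgctgaggggc
Rps10: agccgcgcagcCCGGAAGagacgctgcgcc
Rpl11: aggccacggggCCGGAAGtctccctctctc

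Pyrimidine tracts at the start were marked roughly, by CTTTT or CTTCC on the sense strand within 15 bases of the start. They were present for 27.4% of the 62 members and 11.1% of other genes. A C stood at an annotated start for 21 of the 62, and the median was 6 pyrimidines in the first 10 bases. Of the members printed below, Rpl22l1 and Rpl12 start with G and Rps10 with C. Capitals mark the match in 3 windows of 30 bases centred on the start, Rpl22l1 at chr3:28805493-28805522 (plus), Rpl12 at chr2:32961697-32961726 (plus) and Rps10 at chr17:27635230-27635259 (minus).
Rpl22l1: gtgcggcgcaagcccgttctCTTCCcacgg
Rpl12: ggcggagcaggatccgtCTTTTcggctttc
Rps10: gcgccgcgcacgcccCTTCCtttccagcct
The motif AAGATGG, bound by YY1, was in a promoter of 16.1% of the members and 7.26% of other genes, and the TATA box motif TATAAA in 11.3% against 15.7% (either strand). These shares describe letters in the windows and were not tested.

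Ribosomal protein RNAs were at the bright end of every array. The median of the members' mean log2 signals was 16.86, against 8.65 over all genes. The dimmest member was Rpl3l, a paralogue of Rpl3 known from skeletal muscle and heart, at a mean of 8.06. Rpl3l was well above background in every channel of the pluripotent RNAs and on 1 of the 3 MEF arrays, whereas all other members passed in every channel. Signals this bright are read from few genes, so values of members were set beside those of the 195 other genes at least as bright as the members' first quartile.

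The members' median level changed little from line to line. With normalization between arrays it was 16.90, 16.65 and 16.61 in deficient clones 8, A6 and B2, and 16.92, 16.88 and 16.97 in the same clones with signs of differentiation. The 4 control lines were at 16.76, 16.74, 16.78 and 16.81, V6.5 ESC at 17.14 and MEF at 16.63. Without normalization between arrays the medians were 16.94, 16.69 and 16.67 in the deficient clones, 16.71 to 16.79 in the control lines, 17.21 in ESC and 16.63 in MEF. In both cases ESC was highest, and clone 8 stood above A6 and B2 while undifferentiated but not while differentiating.

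**Figure D1:**
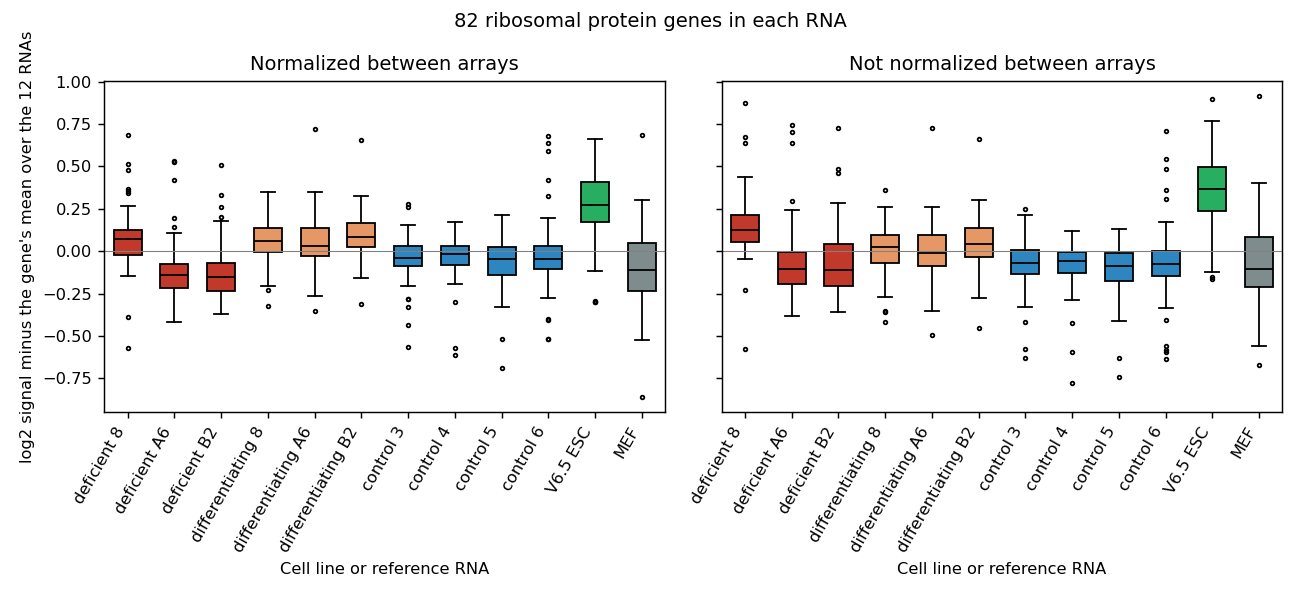
Box plots of the 82 members in each of 12 RNAs, as log2 signal minus each gene's mean over the 12 (median, quartiles, whiskers to 1.5 times the quartile range, points beyond), with normalization between arrays on the left and without on the right. Red is deficient iPSC, orange the differentiating clones, blue the control lines, green V6.5 ESC and grey MEF; the ESC box is the highest in both panels, and deficient clone 8 lies above A6 and B2.

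Deficient clone 8 was read on another slide than A6 and B2. Its value minus the mean of A6 and B2 had a median of 0.22 over the members and was above 0 for 74 of 82, against a median of -0.02 over all genes and 0.14 over the 195 other bright genes. In the differentiating state the same contrast had a median of 0.00 over the members. Within the arrays of the undifferentiated clones, the members' median of clone minus MEF was 0.35, 0.28 and 0.26 for clones 8, A6 and B2. For clone minus ESC it was -0.39, -0.80 and -0.74. Clone 8 thus stood further from A6 and B2 on the ESC arrays than on the MEF arrays. Clone and slide cannot be told apart in either state, as each differentiating clone was read on a slide of its own. In the undifferentiated state the median of 13 endoderm markers was 10.92 in clone 8, 8.69 in A6 and 8.67 in B2. It was 8.64 to 9.89 in the control lines. Clone 8 thus had more endoderm marker RNA although it is called undifferentiated here. The part of this in the contrast was not tested.

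Between deficient and control iPSC the members' median differed by -0.02, and 16 of 82 members passed the test. By limma, 7 members were higher and 9 lower at an adjusted p under 0.05, where 15.2% of all genes were called higher and 31% lower. Beside the members' median, that of all genes was -0.06 and that of other bright genes -0.02. All deficient lines lay above all control lines for 8 members (9.76%), where 17.1% of all genes did so. They lay below all control lines for 11 members (13.4%), where 34.8% of all genes did so. Lack of overlap, given for single members below, was thus common among all genes. The scaling moved the split: without normalization between arrays 15 members were higher and 3 lower (75.1% and 2.61% of all genes), with a median of 0.04 where that of all genes shifted to 0.44. In Agilent's processed signals 12 were higher and 3 lower (15.6% and 31.7% of all genes), with a median of 0.05, and with median centring in place of loess 29 were higher and 0 lower (20.6% of all genes called), with a median of 0.33. Among called members, the largest rises were in Rpl3l, Rpl21, Rpl22l1, Rps25, Rps27l and Rps26, and the largest falls in Rps10, Rpl22, Rps3, Rps19, Rpl18 and Rpl13a. No slide and no scan day held both deficient and control lines, so genotype and scan day cannot be told apart. In bulk RNA, fewer cells of a type and less RNA per cell cannot be told apart either.

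The adjusted p-values of this comparison were too small for a further reason. Line values borrowed strength across the Cy5 and Cy3 channels of a spot, which left an error shared by all lines of a scan day that the spread between lines does not hold. Plain channel means per line do not borrow in this way, though the lines still share a dye term. With them 5 members were higher and 6 lower where 29.6% of all genes were called, and 10 of the 16 calls were kept. On simulated data with few changed genes, 50% of calls in this comparison were false in the designed fit and 8.12% with plain channel means. Rpl3l, Rpl21 and Rps25 were called in the same direction in each of the 14 alternatives tried for this comparison.

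Among the large subunit proteins, Rpl21 was at 11.85, 12.07 and 11.92 in deficient clones 8, A6 and B2 and at 11.55, 11.35, 11.44 and 11.38 in control lines 3 to 6. The groups did not overlap, and the difference was 0.52 ± 0.0709 (log2, standard error; limma adjusted p = 0.00161). Rpl21 has 15 pseudogenes named after it in RefSeq, so which copies the probe reads is uncertain. Its other probe, a dimmer one, differed by 0.25.

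Rpl22, an RNA-binding protein of the large subunit, was at 16.41, 16.29 and 16.37 in the deficient clones and at 16.69, 16.71, 16.65 and 16.59 in the control lines. All deficient lines were below all control lines, with a difference of -0.31 ± 0.0456 (limma adjusted p = 0.00221). Each deficient value joins a Cy5 and a Cy3 channel, and these lay apart. In Cy5 beside MEF, Rpl22 was at 16.54, 16.71 and 16.58 in clones 8, B2 and A6. In Cy3 beside ESC it was at 16.07, 16.13 and 16.10. The part of the dye and of the ESC arrays in this fall was not tested. Its paralogue Rpl22l1 went the other way, at 16.29, 15.75 and 15.98 in the deficient clones and 15.69, 15.61, 15.45 and 15.26 in the control lines. The difference was 0.50 ± 0.152 (limma adjusted p = 0.0333), and all deficient lines were above all control lines. The call of Rpl22l1 ended without clone 8, clone B2, control line 4 or control line 5. Rpl22 had a dimmer probe that differed by 0.11, and the dimmer probe of Rpl22l1 by -0.13, so neither call holds for every probe, and Rpl22l1 was not called when its probes were averaged.

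Rps25, a small subunit protein, was at 17.04, 16.84 and 16.77 in the deficient clones and 16.42, 16.53, 16.48 and 16.42 in the control lines. The difference was 0.42 ± 0.0711 (limma adjusted p = 0.00359), with no overlap, and a second probe 0.40. Rps10 was at 15.74, 15.46 and 15.56 against 15.86, 15.90, 16.00 and 16.01. Its difference of -0.35 ± 0.0748 (limma adjusted p = 0.00884) also came without overlap. In Cy5 beside MEF, Rps10 was at 15.92, 15.77 and 15.74 in clones 8, B2 and A6. In Cy3 beside ESC it was at 15.55, 15.32 and 15.24.

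Of the 5 paralogues, 3 were higher in deficient iPSC (Rpl3l, Rpl22l1 and Rps27l) and Rpl7l1 and Rpl36al did not pass the test. Rpl3l was at 8.78, 8.64 and 8.61 in the deficient clones and 7.67, 7.49, 7.58 and 8.06 in the control lines, a difference of 0.98 ± 0.136 (limma adjusted p = 0.0017). Rps27l, a paralogue of Rps27 known as a p53 target, was at 16.00, 16.01 and 16.10 against 15.59, 15.73, 15.61 and 15.87, a difference of 0.34 ± 0.0753 (limma adjusted p = 0.0107). Both stood above all control lines. With plain channel means the adjusted p of Rps27l was 0.0894.

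Of the 3 reference genes only Rpl13a passed the test, and whether they differ from each other was not tested. Rplp0, of the ribosomal stalk, differed by -0.12 ± 0.094 (limma adjusted p = 0.351) and Rps18 by -0.09 ± 0.0951 (0.479). The files place the Rplp0 probe on chromosome 8, while RefSeq has the gene on chromosome 5. Which copy it reads is therefore uncertain, here and in every comparison below. Rpl13a fell by 0.26 with a standard error of 0.0872 (limma adjusted p = 0.0461). Its call ended with plain channel means (adjusted p = 0.0691), without normalization between arrays, and without A6, B2 or control line 3, 4 or 5.

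Rps3, Rps19 and Rpl18 fell by 0.30, 0.29 and 0.27, and each lost its call without A6, without B2 and without control line 4; Rps19 also lost it without control lines 3 or 5, and Rpl18 without control line 3. Rps19 and Rpl18 also lost their calls without normalization between arrays, and Rps3 in Agilent's processed signals. In Cy5 beside MEF, Rps3 was at 17.38, 17.21 and 17.17 in clones 8, B2 and A6. In Cy3 beside ESC it was at 16.81, 16.53 and 16.53. Rps26 was higher by 0.24 and lost its call without clone 8, B2 or control line 4, with plain channel means (adjusted p = 0.126), and with slide as a random block.

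Single lines moved the count of members called. It was 33 (5 higher, 28 lower) without clone 8, 9 without A6, 7 without B2, 7 without control line 4 and 10 without control line 5. The members' median difference was -0.11 without clone 8. Shares of all genes called are not given for these fits, nor for the fits without a line below unless stated. A change in the members and a change in all calls therefore cannot be told apart from these counts.

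**Figure D2:**
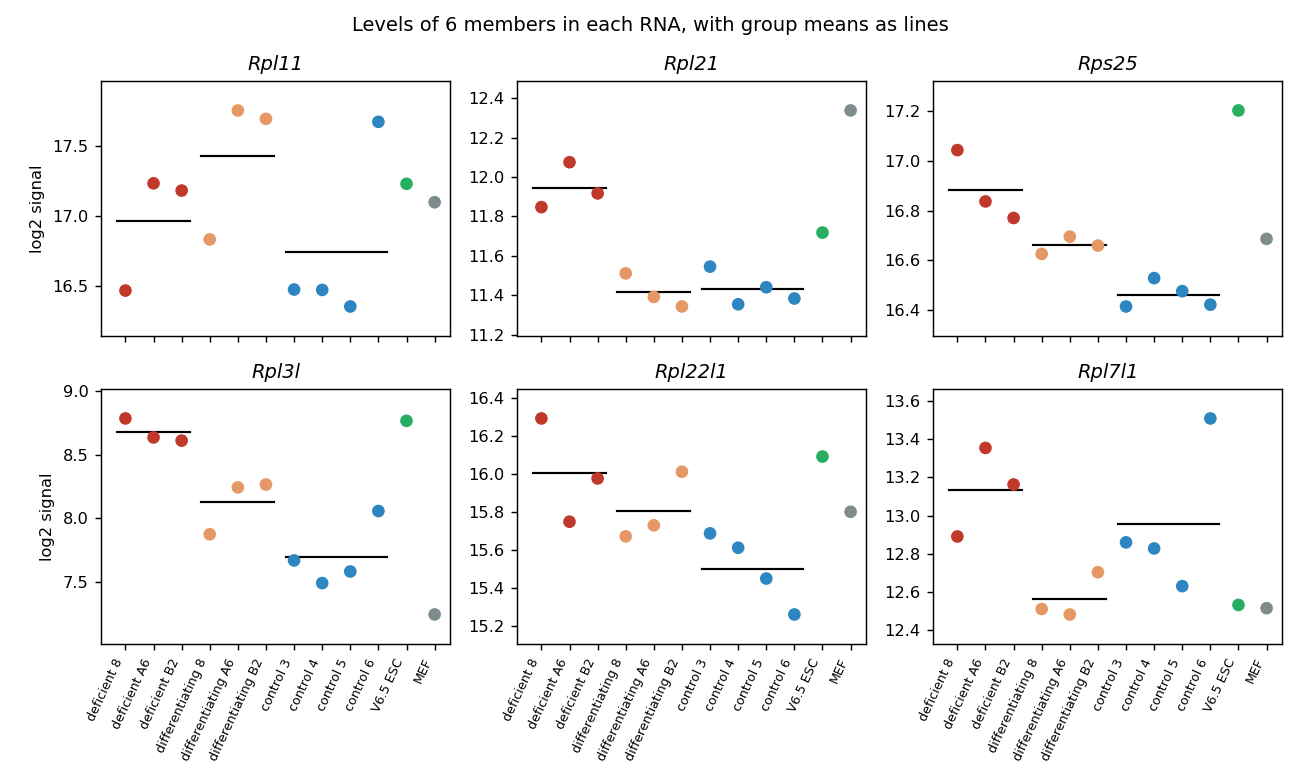
Log2 signal of Rpl11, Rpl21, Rps25, Rpl3l, Rpl22l1 and Rpl7l1 in each of the 12 RNAs, 1 point per cell line or reference RNA, with horizontal lines at the group means; each panel has its own axis range. Rpl11 separates clone 8 and control lines 3 to 5 from the other lines, and Rpl21, Rps25 and Rpl3l are higher in the 3 deficient clones than in the 4 control lines.

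Rpl11, which binds and inhibits Mdm2 when ribosome assembly is disturbed, varied most among lines of the same group. The standard deviation between lines was 0.43 in deficient iPSC, 0.52 in differentiating clones and 0.62 in control lines, the widest of any member in each group, where the members' medians were 0.13, 0.05 and 0.07. Its level was 16.47 in deficient clone 8 and 17.23 and 17.18 in A6 and B2. It was 16.47, 16.47 and 16.35 in control lines 3, 4 and 5 and 17.67 in control line 6.

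The split of Rpl11 was present in both states of each clone. Among differentiating clones it was 16.83 for clone 8 against 17.76 for A6 and 17.70 for B2, and in the reference RNAs at 17.23 (ESC) and 17.10 (MEF). Within arrays that had the clone in Cy3, control line minus clone was -1.06 and -1.11 for A6 (control lines 4 and 3) and -1.02 and -1.04 for B2 (control lines 5 and 3). For clone 8, with the same dyes, it was 0.03, 0.02 and -0.31 (control lines 4, 3 and 5). Control line 6 was read on the same 3 slides as control lines 3 to 5.

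A gene outside the set divided the iPSC lines in a mirrored way. The Y-linked gene Eif2s3y was at 12.33 in deficient clone 8, 8.48 in A6 and 8.10 in B2, at 12.06, 11.84 and 12.86 in control lines 3 to 5 and at 7.93 in control line 6. In the reference RNAs Eif2s3y was at 10.63 (ESC) and 6.91 (MEF). ESC had both genes above the low lines and did not follow the mirrored division. The part of Eif2s3y in the Rpl11 values was not tested. These values are those of the brighter of 2 Rpl11 probes, both placed by the files in the gene on chromosome 4 (mm7 chr4:135428407-135428729, minus strand, for the brighter). In the differentiating clones minus control lines the brighter probe differed by 0.69 and the other by -0.35, and neither passed the test. Rpl11 has no pseudogene named after it in the RefSeq table.

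Set against the mean of control lines 3 to 5, control line 6 ranged from -0.51 (Rpl27a) to 1.24 (Rpl11) over the members. After Rpl11 came Rpl7l1 at 0.74, the X-linked member Rpl10 at 0.57 and Rps19bp1 at 0.52. The other X-linked members, Rpl39, Rps4x and Rpl36a, were at 0.43, 0.33 and 0.22. Over all 82 members this contrast had a median of -0.01, and 38 were above 0.

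The differentiating clones had slightly more ribosomal protein RNA than the control lines read on the same 12 arrays, a direction that turned with median centring in place of loess. By limma 7 members were higher and 0 lower, where 2.32% of all genes were called higher and 2.56% lower. At an unadjusted p under 0.05, limma gave 29 members higher and 1 lower. The share of all genes at that threshold was not counted, here or below, so such counts cannot be set beside all genes. The median difference was 0.11, beside 0.00 over all genes and 0.05 over the other bright genes, and 69 of 82 members were above 0 (51.2% of all genes). All 3 clones lay above all 4 control lines for 31 members, or 37.8%, where 9.8% of all genes did so. Called members included Rps28, Rps21, Rps29 and Rps25 of the small subunit and Rpl36 and Rpl12 of the large subunit.

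Rps28 was at 17.55, 17.57 and 17.67 in clones 8, A6 and B2 with signs of differentiation and at 17.30, 17.30, 17.31 and 17.26 in control lines 3 to 6. The groups were separated by more than the range within either, and the difference was 0.31 ± 0.0391 (limma adjusted p = 0.0258). All 3 probes of Rps28 were higher, by 0.29 to 0.33. Rps21 was at 16.94, 17.04 and 17.03 against 16.69, 16.80, 16.81 and 16.67, a difference of 0.26 ± 0.0506 (limma adjusted p = 0.0436). Rps29 (0.24), Rpl36 (0.23), Rps25 (0.20) and Rpl12 (0.19) differed by less, at adjusted p of 0.0348 to 0.0486 in the limma test.

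None of the reference genes or paralogues passed the test in this comparison. Rplp0 differed by -0.14 ± 0.0924, Rpl13a by 0.07 ± 0.0769 and Rps18 by 0.14 ± 0.061. Rpl3l was at 7.87, 8.24 and 8.27 in the differentiating clones and differed by 0.43 ± 0.16, with clone 8 inside the range of the control lines. Rpl22l1 differed by 0.30 ± 0.126, Rps27l by 0.21 ± 0.0723, Rpl7l1 by -0.39 ± 0.205 and Rpl36al by -0.03 ± 0.0498.

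Medians of the 13 endoderm markers were 8.64 to 9.89 in the control lines and 11.13 to 12.34 in the differentiating clones, with 5 of 13 called higher; their part in the result was not tested. The calls rested on few lines. No member was called without A6, without B2, without control line 3 or without control line 4, where at most 0.107% of all genes were called. At an unadjusted p under 0.05 limma gave 19 to 26 members higher in these 4 fits, again without a share of all genes. Without clone 8 only Rps28 remained called, and without control line 6 there were 20 higher and 1 lower. The median difference was between 0.09 and 0.12 over these 7 fits. With plain channel means 1 member, Rps28, was called (2.29% of all genes), and with slide as a block on the within-array ratios 39 were higher and 3 lower (29.1% of all genes called). Within the slides of clones 8, A6 and B2, with both dye orientations weighted equally, the members' median was 0.11, 0.06 and 0.09. With each array's channels centred on the median in place of loess, a curve that removes dye bias by brightness, the median turned to -0.06.

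The arrays of this comparison also show how far the dye weighs on bright genes. The members' median was 0.31 to 0.37 above the control on the 3 arrays with the differentiating clone in Cy5, and 0.09 to 0.21 below it on the 9 arrays with the clone in Cy3. On all 18 arrays of the series the members' median was higher in Cy5 than in Cy3, by 0.09 to 0.80 after loess and by 0.01 to 0.38 in the Agilent processed signals. The fits hold 1 dye term per gene for this. The excess of Cy5 after loess was 0.39 to 0.80 on the 3 ESC arrays and 0.09 to 0.37 on the 15 others.

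**Figure D3:**
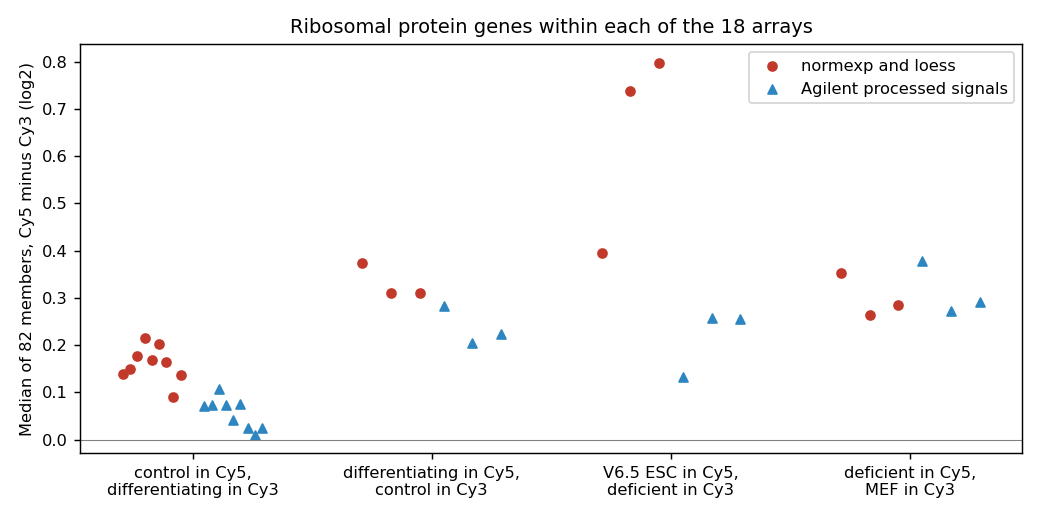
Median over the 82 members of Cy5 minus Cy3 (log2) on each of the 18 arrays, 1 point per array, grouped by which RNA each dye held; red circles are values after normexp and loess, blue triangles the Agilent processed signals. All points are above 0, and the V6.5 ESC arrays reach 0.80 after loess and 0.26 in the processed signals.

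Between the states of the same 3 clones, read on different scan days, members were called higher about as often as all genes. Of 82 members 26 were higher and 3 lower with signs of differentiation (limma, clones paired), where 33.1% and 19.2% of all genes were called. In Agilent's processed signals 6 were higher and 5 lower (32.7% and 17.9% of all genes), and with median centring in place of loess 0 were higher and 44 lower (29.5% of all genes called), with a median of -0.41. State and scan day cannot be told apart. The median difference was 0.13, beside 0.07 over all genes and 0.07 over the other bright genes. Medians of 13 endoderm markers were 12.34, 11.49 and 11.13 in the differentiating clones and 10.92, 8.69 and 8.67 in the undifferentiated ones, with 12 of the 13 called higher by limma and 0 lower, and their part in this result was not tested.

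Rps10 was at 16.14, 16.05 and 16.10 in the differentiating clones and 15.74, 15.46 and 15.56 in the undifferentiated clones 8, A6 and B2. It was higher in all 3 pairs, by 0.51 ± 0.0528 (limma adjusted p = 0.00525). Rps19, a small subunit protein whose loss causes Diamond-Blackfan anaemia in humans, was at 16.49, 16.47 and 16.42 against 16.19, 15.90 and 15.88, a rise of 0.47 ± 0.0706 (limma adjusted p = 0.0101). Both were among the falls of deficient against control iPSC, a comparison that shares the undifferentiated clones. The undifferentiated values of both join a Cy5 channel beside MEF and a lower Cy3 channel beside ESC. The part of the dye and of the ESC arrays in these rises was not tested.

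Rpl11 rose in each clone, by 0.47 ± 0.0509 (limma adjusted p = 0.00557), although the clones themselves differed by far more. Without the clone block its adjusted p was 0.265. Rpl27a, Rpl32 and Rpl3 rose by 0.44, 0.44 and 0.43 (limma adjusted p = 0.0203 to 0.0306). Among the reference genes Rpl13a rose by 0.34 ± 0.0794 (limma adjusted p = 0.0289), while Rplp0 differed by -0.02 ± 0.0373 and Rps18 by 0.22 ± 0.119 without passing.

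Rpl7l1, Rpl3l and Rpl21 were the 3 members that fell. Rpl7l1, a paralogue of Rpl7, was at 12.51, 12.48 and 12.70 in the differentiating clones and 12.89, 13.36 and 13.16 in the undifferentiated ones, a difference of -0.57 ± 0.112 (limma adjusted p = 0.0184), and its other probe by -0.62. Rpl21 fell by 0.53 with a standard error of 0.08 (limma adjusted p = 0.00996), to 11.51, 11.39 and 11.34. Rpl3l fell by 0.55 with a standard error of 0.131 (limma adjusted p = 0.0293) and was not called with plain channel means (0.064). Rpl22l1, Rps27l and Rpl36al differed by -0.20, -0.13 and 0.01 and did not pass.

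The adjusted p-values here carry the same shared error as those of deficient against control iPSC. In the simulated data 44.3% of calls were false in the designed fit and 4.2% with plain channel means. With plain channel means 19 members were higher and 2 lower where 31.1% of all genes were called. Of the 29 calls 20 were kept. Counts moved with single clones, to 51 higher and 4 lower without clone 8, 0 without A6 (15 higher and 3 lower by limma at an unadjusted p under 0.05) and 3 without B2. Of the members named for this comparison, Rps10 and Rpl11 kept their call without B2. Without normalization between arrays 16 members were higher and 15 lower (4.05% and 77.8% of all genes), while the median of all genes moved to -0.44 and that of the members to 0.07.

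V6.5 ESC had more ribosomal protein RNA than the deficient iPSC read beside them, as the spots were processed here, and less with median centring in place of loess. By limma on the log ratios, 50 members were lower in deficient iPSC and 1 higher, where 1.85% and 3.47% of all genes were called. The median difference was -0.40, against 0.03 over all genes. Other bright genes shared the shift: 82 of 195 were lower and their median was -0.30. ESC was 1 reference RNA, in Cy5 on all 3 arrays, so its own spread and its dye were not separated from the RNA.

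Rpl3, which lies at the peptidyl transferase centre of the large subunit, was at 17.47, 17.73 and 17.48 in the ESC channels and at 16.58, 16.43 and 16.09 in deficient clones 8, B2 and A6 on the same arrays. ESC was higher on all 3, and the fit gave -0.95 ± 0.119 for deficient minus ESC (limma adjusted p = 0.000322). Rpl9 was at 17.34, 17.55 and 17.56 in ESC and at 16.74, 16.50 and 16.55 in the clones, a difference of -0.72 ± 0.0686 (limma adjusted p = 3.03e-05). Rpl23a (-0.80), Rpl17 (-0.78) and Rps28 (-0.64) were also among the largest falls.

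Of the reference genes only Rps18 passed here, with differences between them not tested. It was called at -0.43 ± 0.115 (limma adjusted p = 0.0379), while Rplp0 differed by -0.12 ± 0.0981 (0.616) and Rpl13a by -0.14 ± 0.0994 (0.508). Rps18 lost its call in Agilent's processed signals (limma adjusted p = 0.896) and in log ratios of the deposited values (0.202). No paralogue passed: Rpl3l differed by -0.11, Rpl22l1 by -0.08, Rps27l by -0.26, Rpl36al by 0.03 and Rpl7l1 by 0.57. Rpl21 was the 1 member called higher in deficient iPSC, by 0.28 ± 0.0721 (limma adjusted p = 0.0331).

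How the spots were processed decided the size and the direction of this difference. In Agilent's processed signals the members' median was -0.09, with 13 lower and 2 higher (7.61% and 6.25% of all genes), and in the deposited value table it was -0.20. With median centring in place of loess it turned to 1.23, with 80 members called higher in deficient iPSC (65.5% of all genes called), and the other bright genes turned with it, to 1.30. The members' median stayed 0.07 to 0.17 below that of the other bright genes in all these settings and without a dye term. Probes of members that were not the brightest of their gene and had a mean log2 signal under 12 (20 probes of 19 members) had a median of 0.07. Counts fell without A6 (29 lower) and without B2 (27 lower), and Rps18 and Rpl21 lost their calls without A6 and also without B2.

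**Figure D4:**
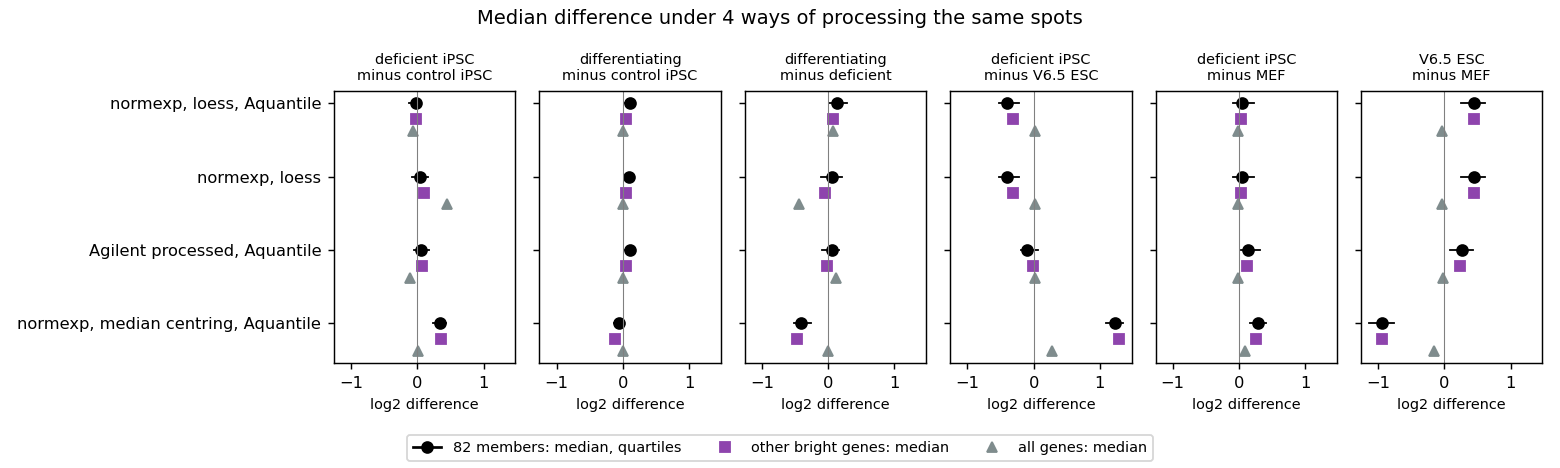
Median log2 difference of the 82 members (black circle, with quartiles), the 195 other bright genes (purple square) and all genes (grey triangle) in the 6 comparisons, under 4 ways of processing the same spots, from the setting used in the text at the top to median centring at the bottom. Members and other bright genes move together between settings, most of all for deficient iPSC minus V6.5 ESC, from -0.40 to 1.23 for the members.

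Against MEF, the deficient iPSC had a members' median of 0.04. By limma 23 members were higher and 7 lower, where 28.1% and 30% of all genes were called. In Agilent's processed signals 33 were higher and 3 lower (30.8% and 29.4% of all genes), and 64 of 82 were above 0, with a median of 0.14. The median was 0.28 with median centring in place of loess, with 1 higher and 0 lower (35.9% of all genes called), and 0.30 without a dye term. MEF was also 1 reference RNA, in Cy3 on all 3 arrays. Rpl35a (0.46 ± 0.0646), Rps21 (0.43 ± 0.0887) and Rpl23a (0.39 ± 0.0892) were higher, at limma adjusted p of 9.46e-06, 0.00047 and 0.00116. Rps19bp1, the member that is no ribosomal protein, was higher by 0.39 ± 0.16 (limma adjusted p = 0.0467), a call that ended without A6 or without B2.

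Lower in deficient iPSC than in MEF were Rpl41 (-0.45 ± 0.137), Rpl21 (-0.44 ± 0.0721), Rplp1 (-0.41 ± 0.094), Rps20 (-0.31 ± 0.113), Rps2 (-0.28 ± 0.0809) and Rps9 (-0.17 ± 0.0618), at limma adjusted p of 4.99e-05 to 0.0261. Rpl41 is the smallest ribosomal protein, and Rplp1 belongs to the stalk with Rplp0. Rpl41 was at 17.76, 17.67 and 17.70 in the channels of deficient clones 8, B2 and A6 and at 17.53, 17.52 and 17.45 in the MEF channels beside them, so its fitted fall rests on the dye term. The same holds for Rplp1, Rps20 and Rps2, which, with Rpl41, turned to 0.25, 0.35, 0.17 and 0.21 without that term. The MEF value of Rpl21, 12.26, 12.30 and 12.21 in 3 channels, was above the 11.88, 11.93 and 11.94 of deficient clones 8, B2 and A6 on the same arrays. Rps20 and Rpl21 turned to 0.18 and 0.04 when all probes of a gene were averaged. Rps20 lost its call without any of the 3 clones, and Rps9 without A6 or B2.

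Of the paralogues, Rpl3l and Rpl7l1 were higher than in MEF. Rpl3l, which was well above background on only 1 of the 3 MEF arrays, was at 8.94, 8.58 and 8.65 in clones 8, B2 and A6 and at 7.10, 7.26 and 7.36 in MEF, a difference of 1.45 ± 0.201 (limma adjusted p = 8.72e-06). It was called in the same direction in all 10 alternatives for this comparison. Rpl7l1 was higher by 0.66 ± 0.239 (limma adjusted p = 0.0256), and its other probe by 1.27, but the call of the brighter one ended without A6 or B2. Rpl22l1 (0.20), Rps27l (-0.03) and Rpl36al (-0.06) did not pass, nor did Rplp0 (-0.18), Rpl13a (0.24) or Rps18 (-0.02).

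V6.5 ESC against MEF, an indirect contrast through the clone that each pair of arrays shares, uses the same ESC channels as above. Here 48 members were higher in ESC and 1 lower, where 20.8% and 26% of all genes were called. The median was 0.45 for members and 0.45 for other bright genes, against -0.04 for all. Among called members read well above background on all arrays, Rpl23a (1.19 ± 0.141), Rpl3 (1.04 ± 0.189), Rpl35a (0.97 ± 0.102), Rps23 (0.93 ± 0.142) and Rpl7 (0.91 ± 0.127) had the largest rises. Rpl3l differed by 1.55 ± 0.318, with 1 of the 3 MEF arrays well above background. Rpl21 was lower, by -0.72 ± 0.114 (limma adjusted p = 6.01e-05).

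None of the 3 reference genes passed here, with Rplp0 at -0.07 ± 0.155, Rpl13a at 0.38 ± 0.157 and Rps18 at 0.41 ± 0.181. Of the paralogues only Rpl3l did, while Rpl22l1, Rps27l, Rpl7l1 and Rpl36al differed by 0.28, 0.24, 0.09 and -0.09. With median centring in place of loess 1 member was higher and 16 lower (48.3% of all genes called) and the members' median turned to -0.94, as did that of the other bright genes, while Rpl3l kept its call and direction in all 9 alternatives.

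**Figure D5:**
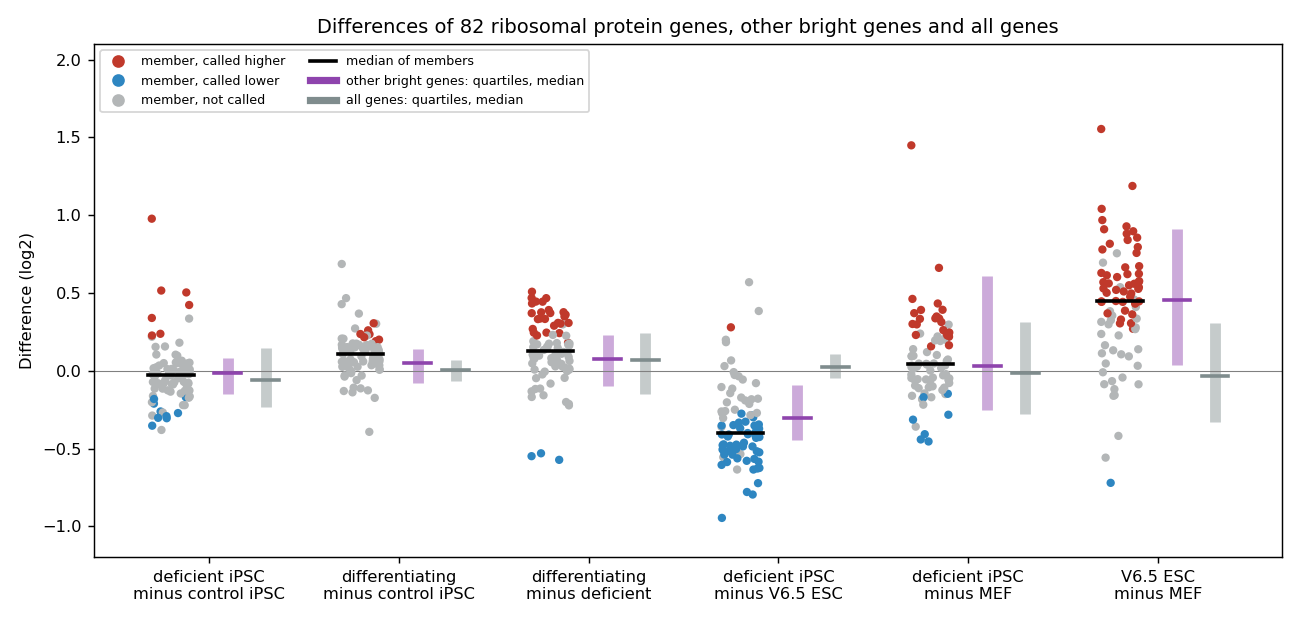
Log2 difference of each of the 82 members in the 6 comparisons (points; red and blue passed the limma test at an adjusted p under 0.05), with the members' median as a black line and the quartiles and medians of the 195 other bright genes (purple) and all genes (grey). Members scatter around 0 in deficient against control iPSC and against MEF, and lie below 0 in deficient iPSC minus V6.5 ESC, where the other bright genes do too and where median centring turns the sign.

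Different probes of the same gene did not always give the same answer. Of the 41 members with more than 1 probe, probes differed in sign for 21 in deficient minus control iPSC and for 14 in differentiating clones minus control. Probes of the same member were called in opposite directions for 0, 0, 1, 0, 3 and 1 members in the 6 comparisons, taken in the order above. The dimmer probes under a mean log2 signal of 12 differed most against MEF: 14 of 20 were higher in deficient iPSC and 1 lower, with a median of 0.59, where 25.7% and 31.3% of all probes that dim were called. RefSeq names 315 pseudogenes after 62 of the members, so probes may read other copies. The Rplp0 probe is placed by the files at mm7 chr8:101459316-101459375 (minus strand), while RefSeq has the gene on chromosome 5, and it is the only member whose probe and gene lie on different chromosomes.

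Ribosomal proteins that carry other names lie outside the name rule. Arbp, an older name of Rplp0, with Fau and Gnb2l1 (now Rack1), gave no call in deficient against control iPSC, in differentiating clones against control or between the states of the clones. Arbp was between 17.33 and 17.58 in all iPSC lines and at 17.66 in ESC and 17.61 in MEF. In deficient iPSC minus ESC, Gnb2l1 (-0.44 ± 0.0858) and Fau (-0.39 ± 0.0601) were lower (limma adjusted p = 0.0064 and 0.00124). Arbp was lower in deficient iPSC than in MEF, by -0.20 ± 0.0806 (limma adjusted p = 0.0424), where the Rplp0 probe differed by -0.18 and did not pass.

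Genes of ribosome assembly were counted from a separate list. Of 58 measured, 51 were higher and 2 lower in deficient iPSC than in MEF (28.1% and 30% of all genes) with a median of 1.01, and Heatr1, of the nucleolar processome, was higher by 1.68 ± 0.082, Nol5a by 1.59 ± 0.097 and Ddx10 by 1.53 ± 0.124. In deficient against control iPSC 11 were higher and 5 lower (15.2% and 31% of all genes): Nolc1, a nucleolar phosphoprotein, rose by 1.21 ± 0.0885 and Gtpbp4 by 0.79 ± 0.0757, and Wdr12 fell by 0.55. In the differentiating clones against control 0 were higher and 8 lower (2.32% and 2.56% of all genes), with a median of -0.23, where that of the members was 0.11. Between the states of the clones 2 were higher and 33 lower (33.1% and 19.2% of all genes), led by Nolc1 at -1.51 ± 0.0512. In deficient iPSC against ESC 4 were higher and 1 lower (3.47% and 1.85% of all genes). These calls are limma's at an adjusted p under 0.05, with Heatr1 against MEF at 2.17e-11.

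Translation factors, the proteins that load and move the ribosome, were counted likewise. Of 23 measured, 5 were higher and 3 lower in deficient against control iPSC (15.2% and 31% of all genes), with Eif4g1, the scaffold of the cap-binding complex, at 0.81 ± 0.0565 and Eif4b at -0.37 ± 0.0617. In the differentiating clones against control 1 was higher, Eif4a2 at 1.02 ± 0.188, and 1 lower, Eif4b at -0.41 ± 0.0787 (2.32% and 2.56% of all genes). Between the clones' states 1 was higher and 10 lower (33.1% and 19.2% of all genes), among them Eif4g1 at -1.01 ± 0.0568. In deficient iPSC against ESC 2 were higher and 4 lower (3.47% and 1.85% of all genes). Against MEF 6 were higher and 7 lower, shares near the 28.1% and 30% of all genes.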

How the data were processed

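Per the file headers, arrays were read with Agilent Feature Extraction 10.1. For both dyes the authors deposited an unnormalized intensity per spot with its surrounding background, a processed intensity, and a log10 value of red to green. Their deposited table of log2 values per probe does not state its scale or direction, and the direction was read from the scanner ratios. The submitters' processing notes name limma, without a version. Signals were background-corrected (normexp, offset 50), loess-normalized within and Aquantile-normalized between arrays in limma 3.58.1 (R 4.3.3). Of 41174 probes 36964 were kept, those that rose well above background in a share of 0.5 or more of some RNA kind's channels; all 82 members passed, and 136 of their 137 probes. Of the member names 81 matched RefSeq by accession.

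Each of the 12 RNAs got 1 value from a separate-channel fit that also estimated the dye (intra-spot correlation 0.761), which limma compared with the line as replicate (3 clones, 4 control lines; clones paired between states). The labels do not say that lines came from separate animals, so p-values measure only the spread between these lines. Comparisons with ESC and MEF were fitted to within-array ratios over the 18 arrays and the dye, pooling the spread of arrays that reuse lines. P-values are two-sided and adjusted by Benjamini and Hochberg's method across the 25202 to 25204 genes tested, and errors are standard errors of log2 differences unless marked otherwise. The pipeline was tested on simulated data, which showed too many false calls where groups lie on different scan days; line values without the intra-spot correlation were therefore added. Members, lists and tests were chosen with earlier results of these data known. Named were Rplp0, Rpl13a, Rps18, measured paralogues, up to 6 called members with the largest rise and 6 with the largest fall per comparison, and up to 3 called genes per direction from other lists; Rpl11, Rpl10 and other values between lines and the probe comparisons were chosen after their values were seen. Some genes that this rule takes in are not reported here by name.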

Additional observations from a re-analysis of the deposited data

Results flagged for a closer look

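Of 37 results tested, the named members and the members' median, 3 had a control line far from the other 3 by Dixon's test at the 95% level, which flags about 1 in 20 groups by chance. In Rpl11, control line 6 was at 17.67 and the others between 16.35 and 16.47, a gap of 0.908 of the range. In Rplp0, whose probe is placed on another chromosome than the gene, control line 6 was at 15.49. The others were between 15.79 and 15.83 (0.88 of the range). In Rps23, control line 5 was at 17.49 and the others between 17.65 and 17.67 (0.857 of the range). No group of 3 lines was tested this way.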

How the results depend on the processing

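Median centring in place of loess, no dye term and plain channel means were added after seeing the data, and the cause of each change was not tested. With median centring the members called and their median were 29 and 0.33 for deficient minus control iPSC, 0 and -0.0585 for differentiating clones minus control, 44 and -0.41 between the clones' states, 80 and 1.23 for deficient iPSC minus ESC, 1 and 0.28 for deficient iPSC minus MEF and 17 and -0.94 for ESC minus MEF. In deficient minus control iPSC it turned Rpl13a (0.11), Rpl22 (0.0666), Rps3 (0.0861), Rps19 (0.0705) and Rpl18 (0.10). Between the states it turned Rpl13a (-0.20), Rpl36al (-0.49), Rps10 (-0.0122), Rpl11 (-0.106), Rps19 (-0.0651), Rpl27a (-0.0367), Rpl32 (-0.13) and Rpl3 (-0.11). Against ESC it turned Rplp0 (1.45), Rpl13a (1.48), Rps18 (1.24), Rpl22l1 (1.48), Rps27l (1.31), Rpl3 (0.69), Rpl23a (0.85), Rpl17 (0.84), Rpl9 (0.91) and Rps28 (1.02), and Rps2 (0.0117) against MEF. In ESC minus MEF it turned Rpl23a (-0.22), Rpl3 (-0.37), Rpl35a (-0.44), Rps23 (-0.44) and Rpl7 (-0.48).

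In Agilent's processed signals 0 members were called for differentiating clones minus control by limma (19 higher and 1 lower at an unadjusted p under 0.05), 11 between the states and 15 against ESC, with medians of -0.0944 against ESC and 0.14 against MEF. Without normalization between arrays 3 were called for differentiating clones minus control, and Rpl36al turned to 0.18 in deficient minus control iPSC and to -0.21 between the states. For differentiating clones minus control, plain channel means gave 1 and slide as a block 42 (2.29% and 29.1% of all genes called). In the deposited values 46 were called, where 72 of the 195 other bright genes were called higher and 31 lower. The share of all genes is not given for that fit, so its count cannot be set beside all genes. Without a dye term the medians were -0.62 (deficient minus ESC), 0.30 (deficient minus MEF) and 0.93 (ESC minus MEF), and against MEF Rpl41 (0.21), Rplp1 (0.25), Rps20 (0.35) and Rps2 (0.17) turned. Averaging all probes gave a median of 0.0935 against MEF and turned Rps18 (0.23), Rpl21 (0.0393) and Rps20 (0.18). Leaving out each line in turn gave 7 to 33 (9 without A6, 10 without control line 5), 0 to 21, 0 to 55, 27 to 60, 21 to 35 and 41 to 58 members called in the 6 comparisons, in the order above, and medians of -0.11 to 0.00, 0.09 to 0.12, 0.07 to 0.20, -0.50 to -0.33, 0.01 to 0.06 and 0.38 to 0.53. Without the replicate block that pairs the states of a clone, 25 members were higher and 4 lower, with a median of 0.13. The control lines have numbers of their own; the slides they share with the differentiating clones were the block given above. Dropping the filter on dim probes, and keeping canonical genes alone, left every total of calls within 1.5 times, though the canonical genes alone had 4 higher calls where all members had 7 in deficient minus control iPSC, and 1 lower call where all members had 3 between the states.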
